A study of Homo sapiens with 36 samples.

Results

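The 300 genes described here are antisense long non-coding RNA (lncRNA) genes, named after the gene they lie against with the ending -AS and a number. They were selected on measured counts, from 59607 features counted in the total RNA libraries, of which 1808 carry such a symbol, with OIP5-AS1 left out. The 300 are those with the highest raw counts summed over the 12 cytoplasm total RNA libraries, 2393161 counts in all. Their levels were therefore used to choose them and are given as a description. The sum includes the treated libraries, so a gene raised by the treatment had a better chance of entry. Ranking on the untreated control libraries alone would have kept 280 of the 300. The other 20 were not in that ranking and entered through the remaining libraries, the auxin-treated DIS3-AID ones among them, so their cytoplasm change is not independent of the choice. Among those named below they are SKAP1-AS1, ZBTB20-AS5, MYL12-AS1, BCL2L1-AS1, WWTR1-AS1, MALT1-AS1, TANK-AS1, DUT-AS1, PROSER2-AS1, BCL10-AS1, SPACA6-AS1, TSPOAP1-AS1, ENO1-AS1 and GOLGA4-AS1. At the edge of the ranking, GOLGA4-AS1 with 1537 and TMEM51-AS1 with 1514 summed counts were the last inside, and ZBTB47-AS1 with 1514 and TMCO1-AS1 with 1510 the first outside.

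The study used HCT116, a human colon carcinoma line, and compared polyA-selected and total RNA of the cytoplasm with total RNA of the chromatin fraction. The DIS3-AID cells are 1 CRISPR clone in which DIS3 carries an auxin-inducible degron (AID), and the control cells carry the untagged gene. Clone and control line both express TIR1, a plant protein that directs AID-tagged proteins to degradation when auxin is present. The 4 groups in each of the 3 data sets were DIS3-AID cells given 500 uM auxin for 1 h, untreated DIS3-AID cells, control cells given the same auxin, and untreated control cells, with 3 libraries each. Cytoplasm triplicates are labelled technical, and nothing says that cultures were separate, so the p-values reflect only how much these libraries varied.

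The RNA exosome is a 3′ to 5′ ribonuclease complex that trims and destroys RNA, and DIS3 is its main catalytic subunit in the nucleus. Antisense lncRNAs are transcribed from the strand opposite another gene, often from that gene's own promoter region or from inside it, and many are spliced and polyadenylated like mRNAs. Nuclear exosome activity is known to keep many promoter-derived and poorly processed non-coding transcripts scarce.

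The members sit in 3 main arrangements relative to the gene they are named for, here called the sense gene. In GENCODE 29, 104 start past the far end of the sense gene and overlap it, 84 start inside it and 101 start within 1 kb of its start. The other 11 lie apart from it, run on the same strand or have no sense gene of that name. The annotation classes 226 as antisense, 32 as processed transcripts and 28 as lincRNA, and 3 as protein-coding. Their summed exon length has a median of 2539 bases, and 16 of them have a single exon. Chromosomes 1, 12 and 3 hold the most, with 29, 27 and 25 members.

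Promoter sequence is shown for 4 members, 2 that rose and 2 that were not called. ARHGAP29-AS1 and MALT1-AS1 rose several-fold after auxin in DIS3-AID cytoplasm, while FGD5-AS1 and THAP9-AS1 are abundant members that passed no threshold there. Each sequence covers 250 bases before to 50 bases after the gene's start in RefSeq GRCh38.p14. They read 5′ to 3′ on the strand of the gene. ARHGAP29-AS1 is at chr1:94247618-94247917 (+ strand), MALT1-AS1 at chr18:58671824-58672123 (− strand), FGD5-AS1 at chr3:14948392-14948691 (− strand) and THAP9-AS1 at chr4:82900867-82901166 (− strand). Capitals mark the GC box GGGCGG, the CCAAT box and the TATA box, written TATAAA, each with its reverse complement, and the marked stretches do not overlap.
ARHGAP29-AS1: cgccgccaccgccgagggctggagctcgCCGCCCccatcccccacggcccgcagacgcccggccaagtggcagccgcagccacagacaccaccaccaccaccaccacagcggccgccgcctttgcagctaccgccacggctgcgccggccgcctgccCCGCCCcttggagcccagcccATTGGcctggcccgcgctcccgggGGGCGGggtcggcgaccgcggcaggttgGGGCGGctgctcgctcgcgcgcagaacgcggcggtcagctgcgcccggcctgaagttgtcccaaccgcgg
MALT1-AS1: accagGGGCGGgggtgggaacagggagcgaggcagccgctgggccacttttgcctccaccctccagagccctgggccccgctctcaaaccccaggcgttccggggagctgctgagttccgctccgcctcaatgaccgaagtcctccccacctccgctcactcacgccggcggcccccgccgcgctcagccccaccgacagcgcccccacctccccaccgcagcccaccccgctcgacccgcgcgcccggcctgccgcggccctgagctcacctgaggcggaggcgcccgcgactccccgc
FGD5-AS1: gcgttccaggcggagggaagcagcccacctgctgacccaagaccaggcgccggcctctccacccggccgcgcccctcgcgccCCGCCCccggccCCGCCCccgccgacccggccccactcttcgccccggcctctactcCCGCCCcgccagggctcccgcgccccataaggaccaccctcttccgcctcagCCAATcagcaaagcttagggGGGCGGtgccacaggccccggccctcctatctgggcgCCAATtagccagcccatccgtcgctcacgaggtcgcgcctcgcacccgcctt
THAP9-AS1: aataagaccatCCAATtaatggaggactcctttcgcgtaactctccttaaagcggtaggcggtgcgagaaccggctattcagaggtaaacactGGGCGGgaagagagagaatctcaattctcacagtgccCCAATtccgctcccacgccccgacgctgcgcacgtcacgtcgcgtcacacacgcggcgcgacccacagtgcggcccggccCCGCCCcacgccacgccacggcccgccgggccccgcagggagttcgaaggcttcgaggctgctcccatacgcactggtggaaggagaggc

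RefSeq promoters could be matched for 239 of the 300 members. GGGCGG on either strand, the core of the Sp1-type GC box, was in 62.8% of these promoters, against 44.6% of all 27305 promoters of the same length. CCAAT, also searched on both strands, was in 32.6% of members and 35.7% of all promoters. TATAAA on either strand was in 5.02% of members and 11.9% of all promoters. Members had a median of 24 CpG dinucleotides per 300 bases, against 14 over all promoters. Among the 72 matched members that were at least 2-fold higher after auxin in DIS3-AID cytoplasm, 72.2% held GGGCGG and 0 held TATAAA. Among the 75 matched members that passed no threshold there, 52.0% held GGGCGG and 8.0% held TATAAA. A match is only the presence of these letters in the window.

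The 3′ ends are shown because DIS3 acts on RNA from that end. They are the last 50 bases of the longest GENCODE 29 transcript, with AATAAA or ATTAAA, the usual hexamers of a polyadenylation signal, in capitals. SKAP1-AS1 ends at chr17:48204480-48204529 (+ strand) and MYL12-AS1 at chr18:3255436-3255485 (− strand). ARHGAP29-AS1 ends at chr1:94334799-94334848 (+ strand), MALT1-AS1 at chr18:58670009-58670058 (− strand) and FGD5-AS1 at chr3:14942784-14942833 (− strand).
SKAP1-AS1: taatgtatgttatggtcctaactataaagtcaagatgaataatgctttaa
MYL12-AS1: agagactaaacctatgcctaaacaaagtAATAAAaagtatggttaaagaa
ARHGAP29-AS1: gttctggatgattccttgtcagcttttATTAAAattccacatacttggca
MALT1-AS1: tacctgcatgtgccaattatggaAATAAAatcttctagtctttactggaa
FGD5-AS1: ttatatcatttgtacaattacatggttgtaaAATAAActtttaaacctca

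Searched on the transcript strand alone, 1 of these hexamers was in the last 50 bases of 506 of the members' 1710 transcripts (29.6%), against 39.0% of the 29566 lncRNA transcripts annotated. At least 1 transcript with the hexamer was annotated for 214 members. Of these, 139 (65.0%) were higher after auxin in DIS3-AID cytoplasm total RNA, against 60 of the 86 members (69.8%) without one. In polyA RNA, 68 of 214 (31.8%) were higher, against 25 of 85 (29.4%).

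Libraries held 59450421 to 122574347 counts in the cytoplasm total RNA, 50278746 to 139011514 in the chromatin libraries and 25859633 to 33068609 in the polyA ones. The degron removes protein, so DIS3 counts do not check the depletion: DIS3 averaged 45.8 ± 0.937 CPM in auxin-treated and 50.1 ± 2.64 CPM in untreated DIS3-AID cytoplasm, against 93.1 CPM in auxin-treated and 90.5 CPM in untreated control cytoplasm (SD, n = 3). CPM is the count scaled to a common library size with the TMM factor. The strand setting of the counting is not given in the sources used here, and 239 members share exon sequence with a gene on the other strand. Where 1 gene lay wholly inside another, the outer gene had at least as many counts in 442 of 442 same-strand pairs and 152 of 194 opposite-strand pairs. A further limit is that 34 members share exon sequence with a gene on their own strand, among them, of those named below, GABPB1-AS1 with MIR4712 and CDKN2B-AS1, TTN-AS1, TTC28-AS1 and LIX1L-AS1 with unnamed genes. Of 6 nuclear RNA markers in the cytoplasm total RNA, 2 were higher after auxin in DIS3-AID cells, NEAT1 by 0.71 and KCNQ1OT1 by 0.49 on the log2 scale. Their summed level was 16520 to 17760 CPM in auxin-treated and 17180 to 19590 CPM in untreated DIS3-AID cells. Of 5 cytoplasmic markers 4 were lower, with 13070 to 13580 CPM in auxin-treated and 14540 to 14650 CPM in untreated DIS3-AID cells. Of 7 colon epithelial markers 3 were lower, with 2562 to 2639 CPM in auxin-treated and 2788 to 2902 CPM in untreated DIS3-AID cells. Both endothelial markers tested were higher (VWF by 1.62 and PECAM1 by 1.20), summing to 2.62 to 3.09 CPM in auxin-treated and 0.823 to 1.16 CPM in untreated DIS3-AID cells, with the defining marker CDH5 near 0. Fibroblast markers, 1 of 2 tested lower, summed to 8.92 to 9.52 CPM in auxin-treated and 9.87 to 11.3 CPM in untreated DIS3-AID cells. Blood cell markers, 0 of 1 tested called, summed to 0.119 to 0.169 CPM in auxin-treated and 0.229 to 0.250 CPM in untreated DIS3-AID cells. In chromatin, scaled apart, the 6 nuclear markers summed to 4875 to 6165 CPM in auxin-treated and 4301 to 4980 CPM in untreated DIS3-AID cells. That is below their cytoplasm sums, so the nuclear set does not check how well the fractions were separated. The 5 cytoplasmic markers summed to 311.9 to 334.0 CPM there in auxin-treated and 287.2 to 317.8 CPM in untreated DIS3-AID cells. The part of the marker changes after auxin in the results was not tested. In such bulk samples, fewer cells of a type and less RNA per cell cannot be told apart.

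The first question was how antisense lncRNAs in the cytoplasm change when auxin is given to DIS3-AID cells. Most of them became more abundant and nearly none fell. Of 300 tested, 199 (66.3%) were higher at an adjusted p below 0.05 in edgeR's quasi-likelihood test, against 21.1% of all 23027 features, and 1 was lower, against 13.2%. At least a 2-fold rise was seen in 87 members, against 14.8% of all features. The median log2 change was 0.49 over the members and -0.05 over all features tested. Of the 280 members that also rank by untreated control counts, 179 (63.9%) were higher, 67 by at least 2-fold, with a median of 0.41. For the 4430 annotated lncRNA genes tested, 48.9% were higher and the median was 0.54, so the members' share called was above that of lncRNAs at large and their median was not. The members' share of all counts was 0.315% ± 0.00827 in auxin-treated and 0.203% ± 0.00212 in untreated DIS3-AID cells, and 0.191% ± 0.00227 in untreated control cells (SD, n = 3 each). The auxin-treated share was 1.55 times the untreated one in DIS3-AID cells. These libraries chose the members, so no test is given. The 280 members that also rank by untreated control counts held 0.301% ± 0.00824 in auxin-treated and 0.201% ± 0.00221 in untreated DIS3-AID cells (SD, n = 3 each), a ratio of 1.49.

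**Figure D1:**
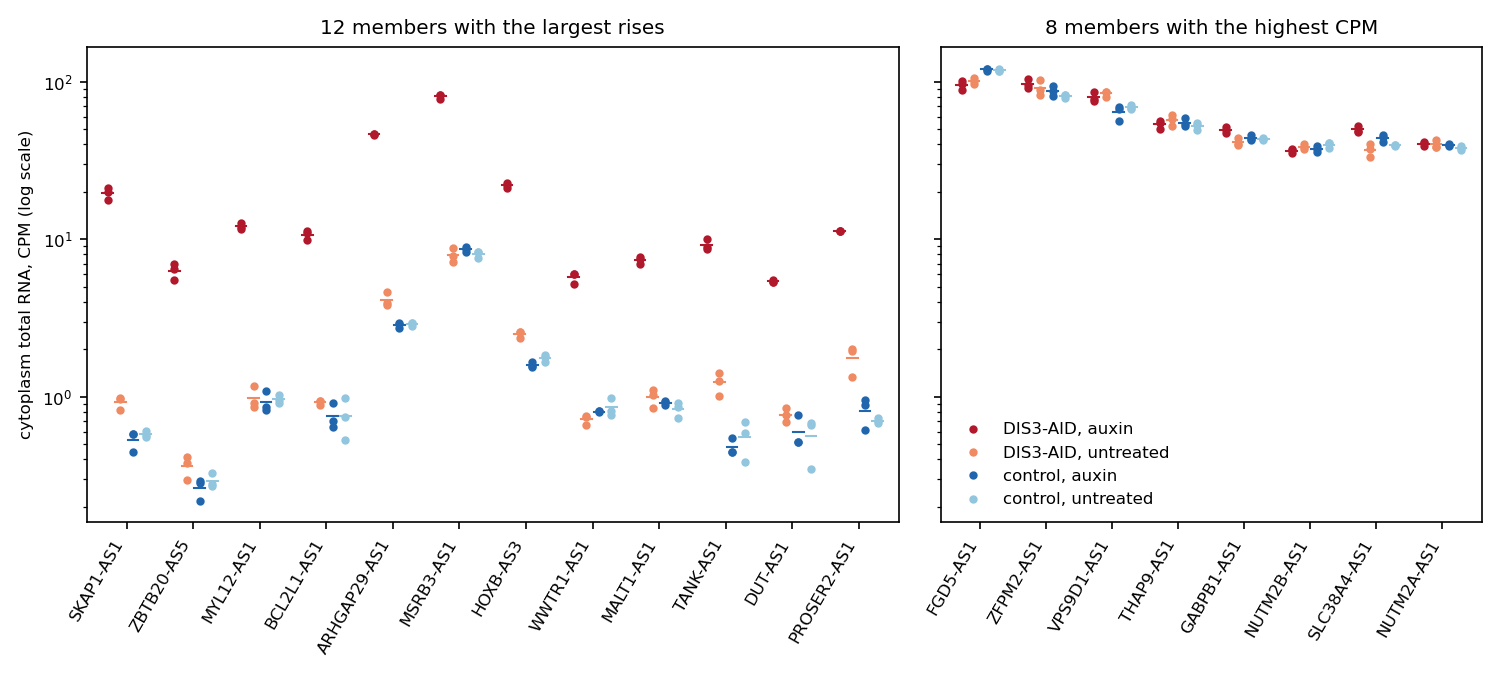
Level in CPM (log axis) of the most changed and the most abundant antisense lncRNAs in each cytoplasm total RNA library, by group, 1 point per library with short lines at the group means. The left panel holds the 12 largest rises and the right the 8 members highest in untreated control cells. The members with the largest rises stand apart in the 3 auxin-treated DIS3-AID libraries, as with SKAP1-AS1 at 21.03, 19.8 and 17.8 CPM, while the abundant members lie at like levels in all groups. Most members of the left panel, SKAP1-AS1 among them, lie outside the untreated control ranking, so their separation is a description.

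The members with the largest rises lie against genes of varied function. SKAP1-AS1 (ENSG00000263787.1, chr17:48185938-48204529, + strand, hg38) lies inside the gene of SKAP1, an adaptor of T cell receptor signalling. It had 21.03, 19.8 and 17.8 CPM in auxin-treated and 0.977, 0.968 and 0.822 CPM in untreated DIS3-AID cells, with 0.577, 0.578 and 0.443 CPM in auxin-treated control cells and 0.554, 0.568 and 0.607 CPM in untreated control cells. Only the auxin-treated clone was high, and the log2 change in the clone was 4.40 ± 0.102 (SE). For the 20 genes outside the untreated control ranking, SKAP1-AS1 among them, no p is given for this change. ZBTB20-AS5 (chr3:114445521-114529452, + strand), against a zinc finger transcriptional repressor gene, had 6.42, 6.91 and 5.51 CPM in auxin-treated and 0.295, 0.411 and 0.378 CPM in untreated DIS3-AID cells, a log2 change of 4.12. MYL12-AS1 (chr18:3255436-3261850, − strand), beside the genes of the myosin regulatory light chains, had 11.6, 11.98 and 12.6 CPM in auxin-treated and 0.863, 1.16 and 0.917 CPM in untreated DIS3-AID cells, a log2 change of 3.62. For both, the treated and untreated libraries are far apart.

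BCL2L1-AS1 (chr20:31686216-31716825, + strand) lies against the gene of the apoptosis inhibitor BCL-xL and changed by 3.53 on the log2 scale. It had 11.3, 10.9 and 9.87 CPM in auxin-treated and 0.943, 0.944 and 0.890 CPM in untreated DIS3-AID cells. ARHGAP29-AS1 (chr1:94247866-94334848, + strand) starts inside the annotated span of ARHGAP29. DIS3-AID cells had 46.7, 46.4 and 45.6 CPM of it with auxin and 3.94, 4.64 and 3.80 CPM without. Control cells had 2.73, 2.89 and 2.94 CPM with auxin and 2.94, 2.81 and 2.92 CPM without. The treated clone stood clear of all other groups (log2 change 3.49 ± 0.0719, SE, edgeR adjusted p = 2.52e-16). MSRB3-AS1 (chr12:65466820-65642372, − strand), against a methionine sulfoxide reductase gene, had 81.96, 82.3 and 77.3 CPM in auxin-treated and 7.18, 8.73 and 7.79 CPM in untreated DIS3-AID cells. Its log2 change was 3.35, and its groups do not overlap.

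HOXB-AS3 (chr17:48549630-48606414, + strand), in the HOXB developmental cluster, had 20.96, 22.7 and 22.1 CPM in auxin-treated and 2.59, 2.57 and 2.36 CPM in untreated DIS3-AID cells (log2 change 3.13). It shares same-strand exon sequence with HOXB-AS1, so reads of the shared sequence could be counted for either gene or for both. WWTR1-AS1, against the gene of the Hippo pathway co-activator TAZ, had 5.22, 6.01 and 6.05 CPM in auxin-treated and 0.659, 0.750 and 0.742 CPM in untreated DIS3-AID cells, an 8.01-fold rise. The groups are again separate for both genes. MALT1-AS1 (chr18:58670009-58671877, − strand) lies at the promoter of MALT1, a paracaspase of NF-kB signalling. It had 6.97, 7.50 and 7.65 CPM in auxin-treated and 1.02, 0.847 and 1.10 CPM in untreated DIS3-AID cells (2.89). TANK-AS1, against the gene of an adaptor in the same signalling system, had 8.94, 9.97 and 8.69 CPM in auxin-treated and 1.42, 1.02 and 1.27 CPM in untreated DIS3-AID cells (2.89). DUT-AS1, against the dUTPase gene, and PROSER2-AS1 followed with log2 changes of 2.81 and 2.68. Separate treated and untreated DIS3-AID libraries were a condition for naming a gene, so that they do not overlap restates the rule. For each of these 12 members the auxin-treated DIS3-AID libraries also lay above the 6 control libraries. All but ARHGAP29-AS1, MSRB3-AS1 and HOXB-AS3 lie outside the untreated control ranking, so for them this is not independent of the choice of members. Of all risers, 8 reached 8-fold, 24 lay between 4- and 8-fold, 55 between 2- and 4-fold, and 112 rose by less than 2-fold. The 20 members outside the untreated control ranking all rose by at least 2-fold, so they weigh on the upper bins. Over all features, 14.8% rose by at least 2-fold, and no share was computed for the finer bins.

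The single fall was H1-10-AS1 (chr3:129315392-129326225, + strand), against the gene of a linker histone. It had 1.80, 1.73 and 1.60 CPM in auxin-treated and 1.99, 2.11 and 2.32 CPM in untreated DIS3-AID cells. The libraries do not overlap, but the log2 change of -0.31 ± 0.108 (SE, edgeR adjusted p = 0.0309) was small and its call was lost under several alternatives, DESeq2 among them.

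The most abundant members changed little. FGD5-AS1 (chr3:14920347-14948424, − strand), studied in colorectal cancer as a cytoplasmic lncRNA, had 101, 96.8 and 87.8 CPM in auxin-treated and 101, 105 and 95.8 CPM in untreated DIS3-AID cells, and 121, 118 and 121 CPM in auxin-treated and 116, 121 and 117 CPM in untreated control cells. The treated and untreated clone libraries overlap, and the log2 change was -0.08 (edgeR adjusted p = 0.265). ZFPM2-AS1, against the gene of a GATA cofactor, had 104, 95.5 and 90.99 CPM in auxin-treated and 82.3, 103 and 88.2 CPM in untreated DIS3-AID cells, a log2 change of 0.09 with overlapping groups. VPS9D1-AS1, THAP9-AS1, NUTM2B-AS1 and NUTM2A-AS1 had log2 changes of -0.08, -0.08, -0.08 and 0.02, none of which passed the threshold. With library sizes alone, FGD5-AS1, VPS9D1-AS1, THAP9-AS1 and NUTM2B-AS1 came out at 0.019, 0.019, 0.016 and 0.017 in place of these negative values. THAP9-AS1 shares same-strand exon sequence with SEC31A, whose reads it could hold in part. Of the 8 members with the highest untreated control counts, 2 rose. GABPB1-AS1, at the gene of a subunit of the transcription factor GABP, changed by 0.26 (edgeR adjusted p = 0.00101). SLC38A4-AS1, against an amino acid transporter gene, had 52.4, 48.6 and 47.97 CPM in auxin-treated and 32.97, 39.99 and 37.1 CPM in untreated DIS3-AID cells, which do not overlap (log2 change 0.44, edgeR adjusted p = 2.49e-05).

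**Figure D2:**
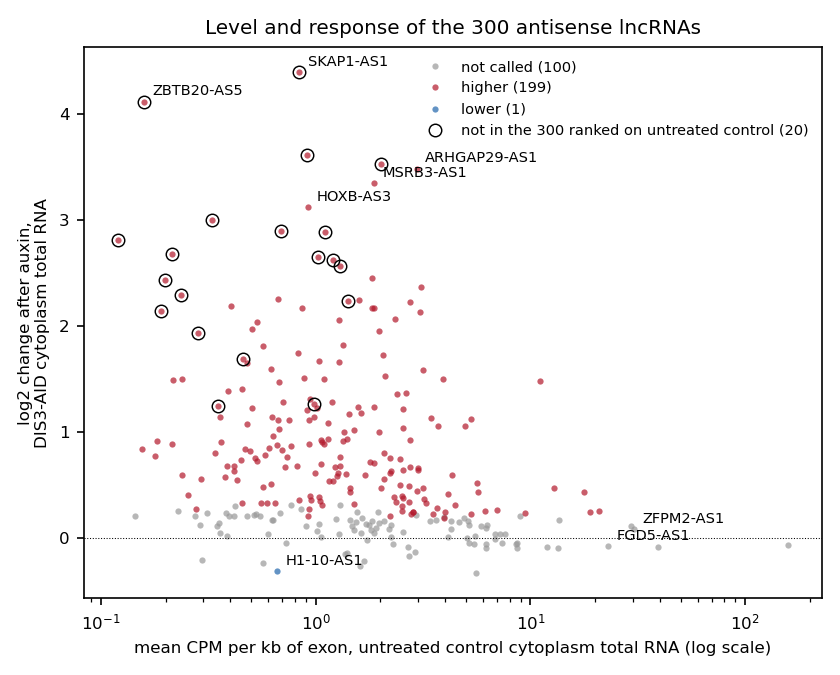
Log2 change after auxin in DIS3-AID cytoplasm total RNA (y axis) against level in untreated control cytoplasm (x axis, CPM per kb of exon, log axis), 1 point per member, coloured by call, with circles round the 20 members outside the untreated control ranking. The Spearman correlation over the 300 members is -0.36, and rises of several-fold are not limited to the lowest levels, as with ARHGAP29-AS1 at 2.95 CPM per kb.

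The change was set against the level, compared per length. Over the 300 members the Spearman correlation between the level per kb of exon in untreated control cytoplasm and the log2 change was -0.36. Members share libraries and depth, and the level entered the choice of members, so this is a description. Of the 75 members with the lowest level in untreated control CPM 67 were higher, but all 20 members outside the untreated control ranking are among them. Of the other 55 in that block 47 (85.5%) were higher, and of the 75 with the highest level 38 (50.7%). The highest levels in untreated control cells were 159.1 CPM per kb for ABHD15-AS1, 39.1 for VPS9D1-AS1, 30.3 for ZFPM2-AS1, 29.5 for GBX2-AS1 and 23.0 for FGD5-AS1. ARHGAP29-AS1 had 47.2 CPM per kb in auxin-treated DIS3-AID cells and 2.95 in untreated control cells, and SKAP1-AS1 had 28.4 and 0.839. After auxin both were thus above the 18.5 CPM per kb of FGD5-AS1 in the treated clone.

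Position against the sense gene went with different shares of risers. Of the members that start within 1 kb of the sense start, 74 of 101 (73.3%) were higher, with a median log2 change of 0.63. Of those that start inside the sense gene, 55 of 84 (65.5%) were higher (median 0.35), and of those that start past its end, 60 of 104 (57.7%) were higher (median 0.36). By exon number, 13 of 16 single-exon members were higher, 119 of 180 with 2 to 4 exons and 67 of 104 with 5 or more. These shares were not tested against each other.

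Several antisense lncRNAs have a described role, mostly in cancer cell lines. Of 24 such genes in a list drawn up from general knowledge, 22 were tested and 11 were higher in auxin-treated DIS3-AID cytoplasm, with 0 lower. The shares higher were 21.1% of all features, 48.9% of annotated lncRNA genes and 66.3% of the members. The list was thus near lncRNA genes at large, and its median of 0.30 was below their 0.54. The risers included HOXA-AS2 of the HOXA cluster at 1.49, RAB11B-AS1 at 1.00, TMPO-AS1 at 0.76, PXN-AS1 at 0.71 and SBF2-AS1 at 0.50 on the log2 scale. CDKN2B-AS1, known as ANRIL and linked to Polycomb silencing of the INK4 locus, had 6.55, 6.69 and 5.87 CPM in auxin-treated and 3.56, 4.01 and 3.72 CPM in untreated DIS3-AID cells, which do not overlap (0.76, edgeR adjusted p = 6.75e-07). ZEB1-AS1, at the gene of a transcription factor of epithelial-mesenchymal transition, rose by 0.73. MCM3AP-AS1 at 0.27 (edgeR adjusted p = 0.0400) lost its call under DESeq2. MAPKAPK5-AS1, TTN-AS1, LOXL1-AS1, FOXP4-AS1 and SLC25A25-AS1 had changes of 0.12, 0.04, -0.06, 0.19 and 0.24 that did not pass, with LOXL1-AS1 at 0.044 under library sizes alone.

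Auxin itself was checked in control cells. In control cytoplasm 0 of 300 members were higher and 0 lower in edgeR, against 0.0217% and 0.0261% of all features. At an unadjusted p below 0.05 there were 25 members, DESeq2 called 0, and the median log2 change was 0.01. The difference between the auxin effects in DIS3-AID and control cells was positive and past the threshold in 168 members, against 16.1% of all features, and negative in 0, against 3.31%. Among the 280 members that also rank by untreated control counts it was positive in 148 (52.9%). The values were 4.49 for SKAP1-AS1, 4.30 for ZBTB20-AS5 and 3.66 for MYL12-AS1 on the log2 scale, given as a description since all 3 lie outside the untreated control ranking.

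**Figure D3:**
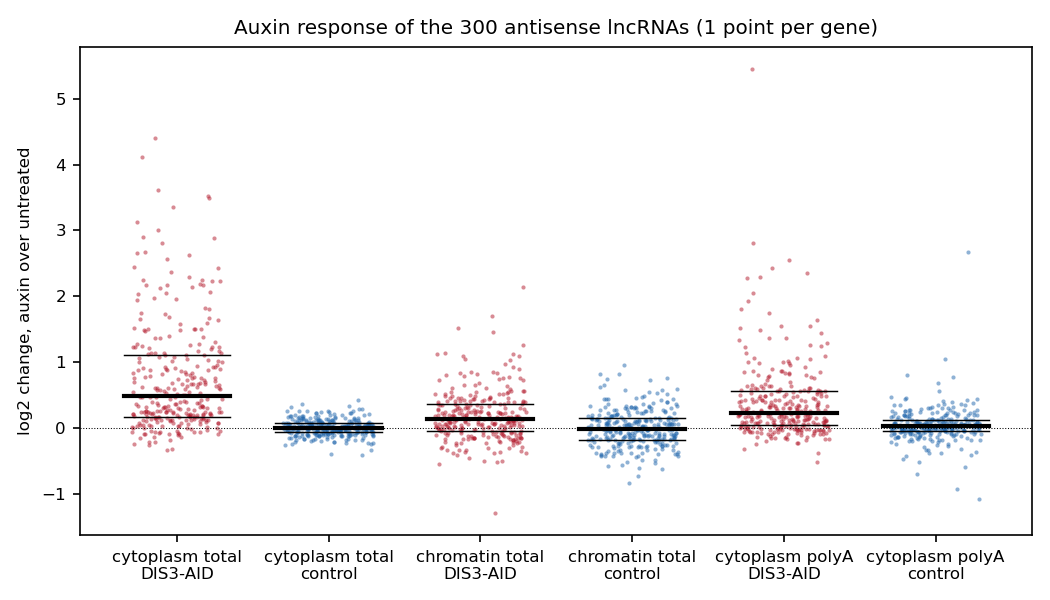
Log2 change after auxin of the members in DIS3-AID and control cells, in cytoplasm total, chromatin and polyA RNA, 1 point per member. The cytoplasm distribution of DIS3-AID cells is shifted upwards, with a median of 0.49, and the control distributions centre near 0.

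In chromatin, where nascent and retained RNA is found, the members moved in both directions. After auxin in DIS3-AID cells, 101 of 299 were higher, against 11.0% of all features, and 21 lower, against 9.54%. With library sizes alone the split was 79 higher and 35 lower. A rise of at least 2-fold was seen in 12 members, against 2.95% of all features. The median was 0.14, and 0.00 over all features. Among the members that also rank by untreated control counts, 87 of 279 tested (31.2%) were higher and 20 lower, with a median of 0.13. Of these, 7 rose by at least 2-fold. The other 5 of the 12 lay outside that ranking, so the count of 12 is not independent of the choice of members. The members took 1.17% ± 0.0277 of chromatin counts in auxin-treated and 1.11% ± 0.0159 in untreated DIS3-AID cells (SD, n = 3).

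MALT1-AS1 had the largest chromatin rise, with 2.82, 2.87 and 3.07 CPM in auxin-treated and 0.657, 0.634 and 0.691 CPM in untreated DIS3-AID cells (log2 change 2.14 ± 0.135, SE, edgeR adjusted p = 4.81e-09). FAM131B-AS2, annotated on the same strand as its namesake FAM131B and not overlapping it, had 0.964, 1.02 and 0.781 CPM in auxin-treated and 0.334, 0.248 and 0.247 CPM in untreated DIS3-AID cells (1.71). These groups are separate. ARHGAP5-AS1 changed by 1.52, BCL2L1-AS1 by 1.47, PROSER2-AS1 by 1.26 and NINJ2-AS1 by 1.14. PROSER2-AS1 had 6.08, 5.14 and 5.42 CPM in auxin-treated and 2.27, 2.25 and 2.47 CPM in untreated DIS3-AID cells, with no overlap.

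The largest falls in chromatin were ZNF710-AS1, BCL10-AS1, SEC24B-AS1, DNAJC27-AS1 and ADAMTSL4-AS1. ZNF710-AS1 had 0.399, 0.284 and 0.330 CPM in auxin-treated and 0.735, 0.964 and 0.823 CPM in untreated DIS3-AID cells (log2 change -1.28, edgeR adjusted p = 1.18e-04). BCL10-AS1, at the gene of an NF-kB adaptor that partners MALT1, had 8.48, 9.02 and 9.61 CPM in auxin-treated and 12.2, 14.3 and 13.02 CPM in untreated DIS3-AID chromatin (-0.54). Groups do not overlap for either gene. BCL10-AS1 rose in the cytoplasm of the same cells by 1.69, SEC24B-AS1 changed by -0.51 in chromatin and 1.08 in cytoplasm, and ADAMTSL4-AS1 by -0.49 and 0.73. DNAJC27-AS1 changed by -0.50 in chromatin and was 2.83-fold higher in cytoplasm. ADAMTSL4-AS1 shares same-strand exon sequence with MCL1, an abundant mRNA. BCL10-AS1 is 1 of the 20 outside the untreated control ranking. Of the 21 members lower in chromatin 13 were higher in cytoplasm, which reads against the 66.3% over all members.

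In control chromatin, unlike control cytoplasm, members were called between auxin-treated and untreated libraries. There 42 were higher, against 9.02% of all features, and 46 lower, against 7.97%, with a median of -0.01. These counts rest partly on single libraries: without replicate 3 of untreated control 52 members were called, and without replicate 1 of auxin-treated control 55. NOP14-AS1 changed by 0.74 (edgeR adjusted p = 3.88e-06), SGMS1-AS1 by 0.83, and HOXA-AS2 and ENO1-AS1 by 0.77 and 0.96, the last 2 with calls that were lost under some alternatives. PAX8-AS1 had 65.3, 60.1 and 64.99 CPM in auxin-treated and 88.8, 99.9 and 91.7 CPM in untreated control chromatin, which do not overlap (-0.56, edgeR adjusted p = 4.14e-06). SPACA6-AS1, TTC28-AS1 and PPIC-AS1 fell by 0.83, 0.73 and 0.61. The chromatin auxin effect of the clone, less that of the control line, was positive in 81 members, against 8.54% of all features, and negative in 25, against 9.2%. With library sizes alone that split was 52 and 29. MALT1-AS1 led with a difference of 2.09, followed by FAM131B-AS2 at 2.02 and BCL2L1-AS1 at 1.81, while ZNF710-AS1 stood at -2.02.

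In polyA-selected cytoplasmic RNA the members again moved upwards. After auxin in DIS3-AID cells, 93 of 299 were higher, against 13.2% of all features, and 0 lower, against 3.88%. DESeq2 called 68 higher and 0 lower. At least a 2-fold rise was seen in 31, against 9.42% of all features, and the median was 0.23, against -0.01 over all features. Among the 280 members that also rank by untreated control counts, 81 (28.9%) were higher, 19 by at least 2-fold, with a median of 0.20. The other 12 of the 31 lay outside that ranking, so the count of 31 is not independent of the choice of members. The members' share of counts was 0.307% ± 0.00035 in auxin-treated and 0.264% ± 0.00112 in untreated DIS3-AID cells (SD, n = 3). The nuclear markers, 3 of 6 of them higher, summed to 181.1 to 188.9 CPM in auxin-treated and 129.2 to 133.6 CPM in untreated DIS3-AID polyA RNA, and their part in the result was not tested.

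SKAP1-AS1 was again the most changed, with 37, 39 and 26 counts in auxin-treated and 1, 1 and 0 counts in untreated DIS3-AID libraries. The depth-scaled ratio of the sums was 51.2, with a 95% counting interval of 13.8 to 428.1, and the fitted log2 change of such a gene depends on the prior count. HEXIM2-AS1, against the gene of a 7SK-dependent inhibitor of P-TEFb, had 2.79, 3.19 and 3.94 CPM in auxin-treated and 0.675, 0.551 and 0.707 CPM in untreated DIS3-AID cells (log2 change 2.36, edgeR adjusted p = 2.49e-09). WWTR1-AS1 had 2.54, 2.88 and 3.72 CPM in auxin-treated and 0.604, 0.448 and 0.824 CPM in untreated DIS3-AID cells (2.29). The groups are apart for all 3 genes. SPACA6-AS1, against the gene of a sperm-egg fusion protein, had 1.02, 1.90 and 2.27 CPM in auxin-treated and 0.284, 0.241 and 0.353 CPM in untreated DIS3-AID cells (2.55). BCL2L1-AS1 and TANK-AS1 changed by 2.81 and 2.43.

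Auxin in control cells called 0 members higher and 0 lower in polyA RNA in edgeR, against 0.012% and 0.036% of all features. There were 17 members at an unadjusted p below 0.05, and DESeq2 called 0. The difference of the auxin effects between clone and control was positive in 31 members, against 4.85% of all features, and negative in 1, RARA-AS1, against 0.985%. Among members past the threshold, SPACA6-AS1, WWTR1-AS1 and MSRB3-AS1 had the largest differences, at 3.47, 2.89 and 2.17. For BCL2L1-AS1, TANK-AS1, SKAP1-AS1 and HEXIM2-AS1, named above for polyA RNA, the differences of 3.88, 3.12, 2.78 and 1.30 did not pass. Their polyA rises are thus not shown to differ from the auxin effect in control cells.

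The calls of the 3 data sets overlapped in part. Of the members higher in auxin-treated DIS3-AID cytoplasm total RNA and tested in both, 85 (42.7%) were also higher in chromatin, against 38.4% of all features higher in that cytoplasm. For polyA RNA these were 90 members (45.5%), against 48.6% of all features, and in all 3 data sets 44 members (22.2%), against 28.6%. No call in any of the 3 was made for 75 members. Chromatin alone was called higher in 14. No share over all features was computed for these last counts, so they are a description. Across members, the Spearman correlation between the log2 changes was 0.77 for polyA and cytoplasm total RNA and 0.26 for chromatin and cytoplasm (n = 299 each). Genes were the points, and each pair of data sets shares the clone.

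**Figure D4:**
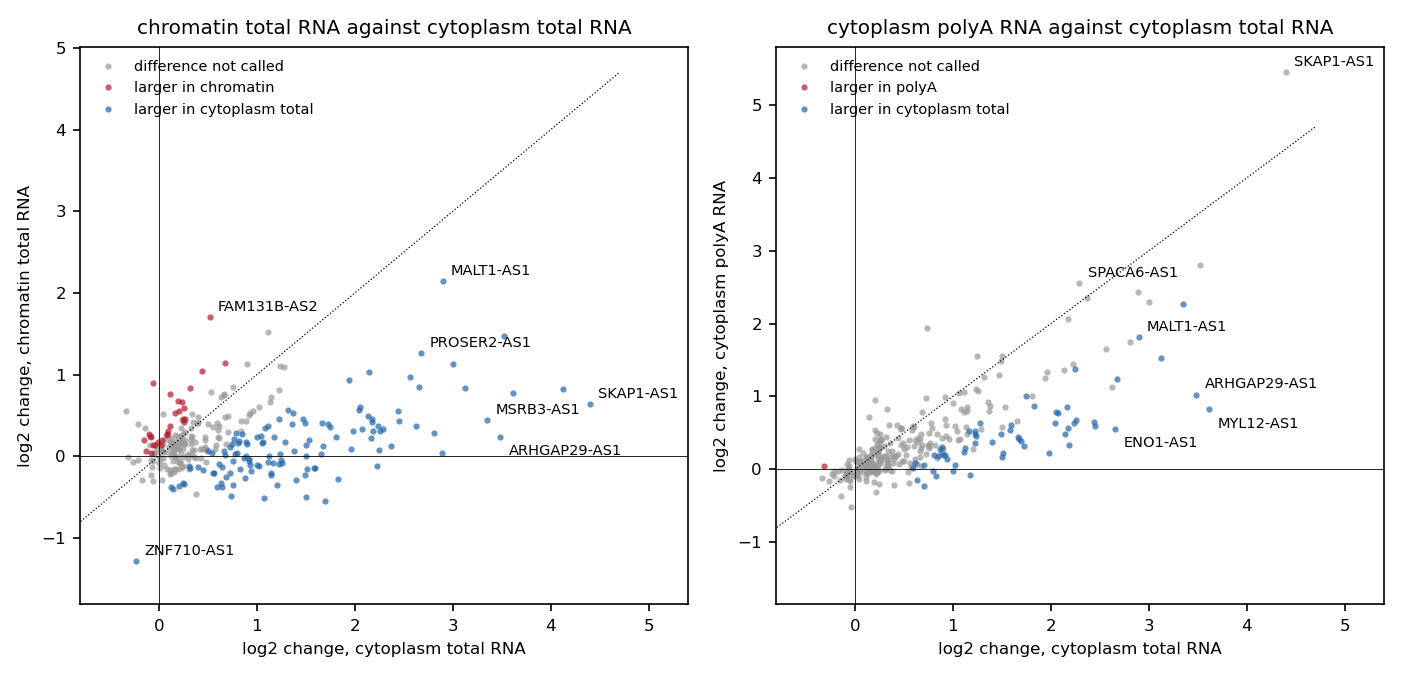
Log2 change after auxin in DIS3-AID cells of each member in chromatin (left) and in polyA RNA (right) against that in cytoplasm total RNA, 1 point per member. The polyA changes follow the cytoplasm changes with a Spearman correlation of 0.77, and the chromatin changes with 0.26.

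The difference between responses was tested directly. The chromatin response minus the cytoplasm response was negative in 125 members, against 11.0% of all features, and positive in 29, against 22.1%. The median was -0.19 over the members and 0.16 over all features. With library sizes alone the split was 182 negative and 2 positive, and the median of all features was -0.17. Members ranked on untreated control counts gave 111 negative and 29 positive. SKAP1-AS1 had the largest negative difference, -3.57, and changed by 0.64 in chromatin. ARHGAP29-AS1 changed by 0.24 in chromatin, which did not pass (edgeR adjusted p = 0.142), and its difference was -3.06. TANK-AS1 changed by 0.04 in chromatin, also not past the threshold, with a difference of -2.67. ZBTB20-AS5 and MSRB3-AS1 had differences of -3.11 and -2.73. SKAP1-AS1, TANK-AS1 and ZBTB20-AS5 lie outside the untreated control ranking, so their differences are a description. Among members past the threshold, FAM131B-AS2 and ATP2A1-AS1 led in the other direction at 1.37 and 1.14. RHPN1-AS1, URB1-AS1 and LBX2-AS1 followed at 0.83, 0.78 and 0.70, with calls that were lost under DESeq2 and library sizes alone. PHLDA1-AS1 at 1.06 and THSD4-AS1 at 0.80 did not pass.

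The polyA response minus the cytoplasm total response was negative in 57 members, against 3.0% of all features, and positive in 1, against 5.29%. Without a filter on low counts 90 members were called, and without polyA auxin-treated DIS3-AID replicate 2 there were 88. With library sizes alone the median of all features moved from 0.16 to -0.005. ARHGAP29-AS1 changed by 1.03 in polyA RNA, and its difference was -2.33 (edgeR adjusted p = 9.97e-13). UBAC2-AS1 had 20.5, 20.1 and 22.3 CPM in auxin-treated and 3.74, 3.73 and 4.04 CPM in untreated DIS3-AID cytoplasm total RNA. In polyA RNA it had 6.997, 6.71 and 6.72 CPM in auxin-treated and 4.44, 4.20 and 4.91 CPM in untreated DIS3-AID cells. The treated libraries are higher in both, and the difference of the log2 changes was -1.73. MYL12-AS1 changed by 0.83 in polyA RNA, which did not pass, and its difference was -2.66. ENO1-AS1 and LIX1L-AS1 followed at -1.97 and -1.73. MYL12-AS1 and ENO1-AS1 lie outside the untreated control ranking, so their differences are a description. Members ranked on untreated control counts gave 50 negative and 1 positive. The positive one was H1-10-AS1 at 0.48, a call that rests on single libraries. Without any 1 of the DIS3-AID polyA libraries, auxin-treated or untreated, its difference was 0.18 to 0.28 and did not pass. The call was also lost under DESeq2, RLE factors, library sizes alone, no count filter, and without replicate 2 or 3 of either DIS3-AID cytoplasm group.

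Whether the sense genes changed with their antisense partners was asked next. Of 267 sense genes tested in auxin-treated DIS3-AID cytoplasm, 28 (10.5%) were higher and 48 (18.0%) lower, with a median log2 change of -0.10, against the background of 21.1% and 13.2% given above. Among 269 member and sense pairs, both were higher in 15, the member was higher and the sense gene lower in 33, and the member was higher with the sense gene not called in 135. The member's log2 change was above the sense gene's in 237 of 269 pairs. The median was 0.49 over the members and -0.10 over the sense genes, so this count does not show that partners changed together. Between the log2 changes of member and sense gene the Spearman correlation was 0.03 (n = 272), so the changes were nearly unrelated across the set. No counts expected for unrelated partners were computed, so the pair counts are a description. ARHGAP29 had 1299 ± 105.7 CPM in auxin-treated and 1281 ± 86.1 CPM in untreated DIS3-AID cells, overlapping within their SD, beside the 3.49 of ARHGAP29-AS1.

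**Figure D5:**
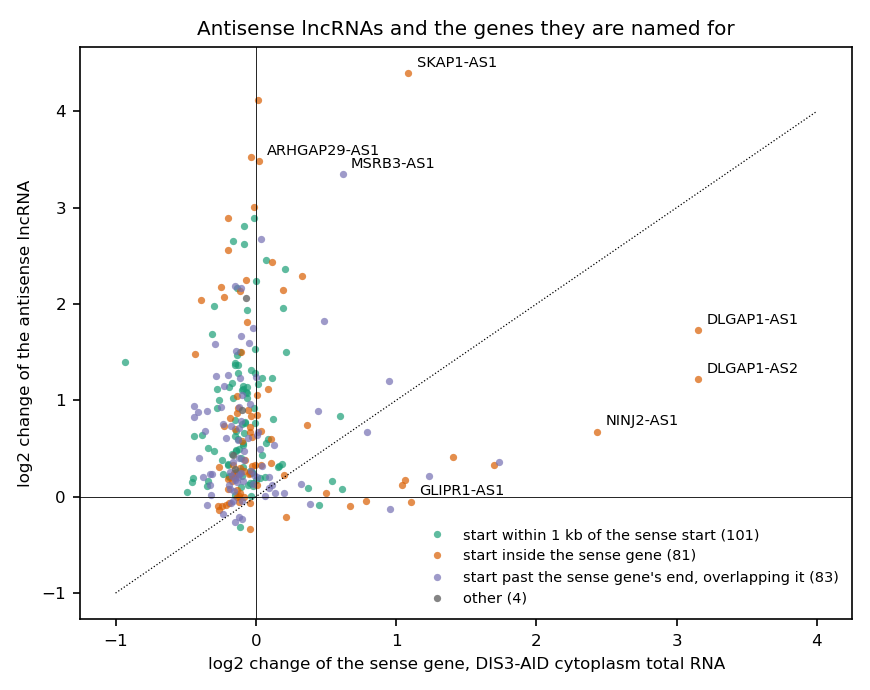
Log2 change after auxin in DIS3-AID cytoplasm total RNA of each antisense lncRNA (y axis) against that of its sense gene (x axis), for 269 pairs, coloured by arrangement. The lncRNA lies above its sense gene in 237 pairs. The Spearman correlation between the changes of lncRNA and sense gene, computed over 272 members, is 0.03.

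A few sense genes rose with their antisense partner. SKAP1 had 41.3 ± 2.57 CPM in auxin-treated and 19.4 ± 1.68 CPM in untreated DIS3-AID cells (log2 change 1.09 ± 0.065, SE, edgeR adjusted p = 7.86e-11). DLGAP1, which encodes a postsynaptic scaffold protein, had 81.6 ± 2.73 CPM in auxin-treated and 9.18 ± 0.681 CPM in untreated DIS3-AID cells. Its log2 change of 3.15 exceeded those of DLGAP1-AS1 at 1.73 and DLGAP1-AS2 at 1.22. These 3 pairs were the ones with both partners at least 2-fold higher. NINJ2, the gene of an adhesion protein, had 3.30 ± 0.264 CPM in auxin-treated and 0.605 ± 0.072 CPM in untreated DIS3-AID cells, while NINJ2-AS1 changed by 0.68. The sense gene was lower and the member higher at BCL10 (-0.31, with 1.69 for BCL10-AS1), RAB11B (-0.26, with 1.00), PPIC (-0.38, with 0.64) and the glycolytic gene ENO1 (-0.16, with 2.66). At GLIPR1 the sense gene changed by 1.10 and GLIPR1-AS1 by -0.05, which did not pass.

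The untreated clone already differed from the control line. In cytoplasm total RNA 60 members were higher in untreated DIS3-AID than in untreated control cells, against 9.67% of all features, and 33 lower, against 12.4%. With DESeq2-type (RLE) size factors the split was 74 and 25. PROSER2-AS1 had 2.01, 1.33 and 1.94 CPM in untreated DIS3-AID and 0.730, 0.678 and 0.706 CPM in untreated control cells, which do not overlap (log2 difference 1.32, edgeR adjusted p = 1.67e-05). TANK-AS1, SEMA6A-AS1 and TSPOAP1-AS1 followed at 1.12, 0.78 and 0.77. PKD1-AS1, against the polycystin-1 gene, had 2.03, 1.59 and 2.09 CPM in untreated DIS3-AID and 3.20, 3.49 and 3.83 CPM in untreated control cells, again without overlap (-0.88). GLIPR1-AS1, BAZ1A-AS1 and AADACL2-AS1 were lower by 0.62, 0.59 and 0.59, the last call being lost without replicate 1 of the untreated clone.

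In chromatin, 83 members were higher in the untreated clone, against 15.2% of all features, and 50 lower, against 17.4%. AADACL2-AS1 had 27.4, 28.6 and 27.9 CPM in untreated DIS3-AID and 84.95, 89.9 and 93.1 CPM in untreated control chromatin, far apart (log2 difference -1.68, edgeR adjusted p = 9.63e-14). FAM131B-AS2, SPACA6-AS1 and TTC28-AS1 were lower by 1.31, 0.97 and 0.82, and HOXA-AS2, ZNF710-AS1, PROSER2-AS1 and LCMT1-AS1 were higher by 1.45, 1.37, 1.36 and 0.94. The untreated clone libraries enter this comparison and the auxin comparison in the clone, where FAM131B-AS2 changed by 1.71 and ZNF710-AS1 by -1.28. In polyA RNA 19 members were higher, against 6.22% of all features, and 12 lower, against 5.65%. PROSER2-AS1 was higher there by 0.90, as were HEXIM2-AS1 by 1.02, PRDX6-AS1 by 0.90 and FAM222A-AS1 by 0.74. The calls of HEXIM2-AS1 and PROSER2-AS1 were lost under some alternatives. KIF23-AS1, MSRB3-AS1, PKD1-AS1 and KLRK1-AS1 were lower by 0.91, 0.85, 0.69 and 0.59.

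Members were distributed between chromatin and cytoplasm over a wide range. In untreated control cells 184 were higher in chromatin than in cytoplasm, against 46.2% of all features, and 99 lower, against 44.0%, with at least 2-fold differences in 152, against 37.1%, and 76, against 34.6%. The median log2 ratio was 1.02, against 0.10 over all features, which moved to 0.755 with library sizes alone. The fractions were scaled apart, so a ratio gives relative and not absolute amounts. SLC38A4-AS1 had 1203, 1205 and 1245 CPM in chromatin and 39.5, 39.00 and 39.8 CPM in cytoplasm (4.31). AADACL2-AS1 had 84.95, 89.9 and 93.1 CPM in chromatin and 1.83, 2.11 and 2.09 CPM in cytoplasm (4.84, edgeR adjusted p = 5.01e-35). GNG12-AS1, ADAMTSL4-AS1 and SEMA6A-AS1 were also chromatin-rich, at 4.48, 4.30 and 4.26. At the other end, FGD5-AS1 had 4.53, 4.64 and 4.47 CPM in chromatin and 116, 121 and 117 CPM in cytoplasm (-5.34, edgeR adjusted p = 4.52e-39). THSD4-AS1 had 0.102, 0.200 and 0.111 CPM in chromatin and 5.003, 5.05 and 5.20 CPM in cytoplasm (-5.96). CLN8-AS1, PHLDA1-AS1 and AGAP2-AS1 were at -6.09, -5.37 and -5.18. Groups do not overlap in any of these.

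The starting distribution was set beside the auxin response. The Spearman correlation between the chromatin to cytoplasm ratio and the cytoplasm log2 change was 0.14 over the 300 members, which share libraries. With the members in 4 blocks of 75, from the most cytoplasmic to the most chromatin-rich, 40, 51, 53 and 55 were higher in DIS3-AID cytoplasm after auxin. In chromatin 30, 28, 27 and 16 were higher and 1, 5, 6 and 9 lower. Members that start within 1 kb of the sense start had a median log2 ratio of 0.04, those inside the sense gene 0.70 and those past its end 1.88. The 16 single-exon members lay at a median of -2.47, and those with 5 or more exons at 1.78.

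Antisense lncRNAs outside the 300 moved in the same direction in cytoplasm. Of the other 1508 symbols of this kind 522 passed the count filter, and 331 (63.4%) were higher and 0 lower in auxin-treated DIS3-AID cells, with a median of 1.04. These passed the filter in part through the treated libraries, so the share describes only those counted. For the 300 members ranked on untreated control counts instead, 188 were higher.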

How the data were processed

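Processing used 36 libraries of raw whole-number counts per gene, deposited by the authors as 1 table per library. Per the submitters' processing notes, featureCounts 2.0.0, STAR 2.7.3a and Cufflinks 2.2.1 were run on hg38; parameters and the strand setting are not given in the sources used here. Per the labels' protocols, stranded Illumina kits made the libraries. Groups came from the labels.

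Ensembl IDs were given current symbols, and the members, gene lists and tests were chosen with earlier results of these data known. Positions and exon lengths come from GENCODE 29, where 18 members carry another ID version, and sequences from RefSeq GRCh38.p14 and GENCODE 29. No script used per-sample values outside the mapped files.

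Each data set was filtered with filterByExpr (min.count 10), scaled by TMM and fitted with robust quasi-likelihood F tests in edgeR 4.0.16, with all groups sharing the spread and Benjamini-Hochberg adjustment over all features at 0.05. The filter removed CLN8-AS1 from the chromatin fit and ZBTB20-AS5 from the polyA fit. The biological coefficient of variation was 6.59% in cytoplasm, 6.53% in chromatin and 6.07% in polyA RNA. Comparisons across fractions used 24 libraries in 1 fit. The procedure was tested on simulated data. No 2 libraries held identical values, and replicates differed by more than counting noise. Intervals cover counting error only, since reads without molecular identifiers are not independent molecules.

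Named genes were those past the threshold whose groups did not overlap, taken by size of change (12 risers and 5 falls in DIS3-AID cytoplasm, fewer elsewhere; no overlap condition for differences between responses), plus the 8 highest by untreated control counts, edge members and the described-role list. Genes cited for a contrast between data sets, the CPM per kb leaders, and all sense genes other than those of named members were added after their values were seen. Alternatives were DESeq2 1.42.0, RLE factors, library sizes alone, no filter, a replicate block, only the groups compared, ranking members on untreated control counts, and leaving out each library. The fits ran in R 4.3.3 (limma 3.58.1), the rest in Python 3.11.15 with pandas 2.3.3, scipy 1.17.1 and matplotlib 3.10.9.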

Additional observations from a re-analysis of the deposited data

Results flagged for a closer look

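Each of the following results is a difference between 2 responses to auxin that was tested as an interaction term in edgeR. Between DIS3-AID and control cells, the auxin effect differed in 168 members in cytoplasm total RNA, all of them higher in the clone. Of all features, 16.1% were higher and 3.31% lower. SKAP1-AS1 led at 4.49, ZBTB20-AS5 followed at 4.30 and MYL12-AS1 at 3.66 on the log2 scale, all 3 outside the untreated control ranking and so a description. Among the 280 members in that ranking the effect was higher in 148. In chromatin 106 members differed, 81 higher, against 8.54% of all features, and 25 lower, against 9.2%. MALT1-AS1 had a difference of 2.09, FAM131B-AS2 of 2.02 and BCL2L1-AS1 of 1.81, while ZNF710-AS1 stood at -2.02, BAALC-AS1 at -0.85 and ADAMTSL4-AS1 at -0.83. In polyA RNA 32 members differed, 31 higher, against 4.85% of all features, and 1 lower, against 0.985%. SPACA6-AS1 was at 3.47, WWTR1-AS1 at 2.89, MSRB3-AS1 at 2.17 and RARA-AS1 at -0.76.

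Between fractions of the same DIS3-AID cells, the chromatin response differed from the cytoplasm response in 154 members. It was lower in 125, against 11.0% of all features, and higher in 29, against 22.1%. The largest positive differences past the threshold were 1.37 for FAM131B-AS2, 1.14 for ATP2A1-AS1, 0.83 for RHPN1-AS1, 0.78 for URB1-AS1 and 0.70 for LBX2-AS1. The calls of RHPN1-AS1, URB1-AS1 and LBX2-AS1 were lost under DESeq2 and library sizes alone. The negative ones were -3.57 for SKAP1-AS1, -3.11 for ZBTB20-AS5, -3.06 for ARHGAP29-AS1, -2.73 for MSRB3-AS1 and -2.67 for TANK-AS1. Those of SKAP1-AS1, ZBTB20-AS5 and TANK-AS1, all outside the untreated control ranking, are a description. The polyA response differed from the total RNA response in 58 members. It was lower in 57, against 3.0% of all features, and higher in 1, against 5.29%. H1-10-AS1 was at 0.48, but at 0.18 to 0.28 and not past the threshold without any 1 of the DIS3-AID polyA libraries. MYL12-AS1 was at -2.66, ARHGAP29-AS1 at -2.33, ENO1-AS1 at -1.97, UBAC2-AS1 at -1.73 and LIX1L-AS1 at -1.73. The values of MYL12-AS1 and ENO1-AS1, both outside the untreated control ranking, are a description. LIX1L-AS1 shares same-strand exon sequence with an unnamed gene.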

How the results depend on the processing

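The 199 rises and 1 fall in auxin-treated DIS3-AID cytoplasm came to 190 to 203 calls when single libraries were left out. The polyA minus total RNA count of 58 was 90 without a low-count filter and ran from 48 to 88 without single libraries. Auxin in control chromatin, 88 calls, ran from 52 to 93. With library sizes alone, small changes turned sign: FGD5-AS1 to 0.019, VPS9D1-AS1 to 0.019, THAP9-AS1 to 0.016, NUTM2B-AS1 to 0.017 and LOXL1-AS1 to 0.044. NUTM2A-AS1 ran from -0.0024 (without auxin-treated DIS3-AID replicate 1) to 0.089. Of 1649 recomputed values for 124 named results, 1570 kept direction and side of the threshold, 70 lost the call, 3 gained one and 6 turned sign; the cause was not tested. Depth limits the scarcest members, such as SKAP1-AS1 in polyA RNA.

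Replicate numbers were not taken to pair libraries, since the correlation of same-numbered deviations ran from -0.17 to 0.11. In fits blocked on replicate number, the calls were 208 for auxin in DIS3-AID cytoplasm, 0 in control cytoplasm, 103 between the untreated lines and 173 for the difference. In chromatin the block gave 115, 75, 122 and 88 calls, and in polyA RNA 96, 0, 34 and 35. Across data sets the block gave 284 calls for the fractions, 157 for chromatin minus cytoplasm and 69 for polyA minus total RNA.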
